A study of Mus musculus with 32 samples.

Results

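Solute carrier genes on the autosomes were followed in differentiating mouse embryonic stem cells. Members were all autosomal genes whose symbol starts with Slc and a digit, other than Slc29a1, Slc22a3 and Slc22a18, with at least 1 RPKM (read density scaled to transcript length and sequencing depth) in any differentiating mRNA-seq library. The rule took 198 of the 241 autosomal Slc genes in the differentiating table, which lists 15012 genes, and the 9 Slc genes on the X were not included. Of the 198, 151 had at least 1 RPKM in every library, and 47 were under 1 in at least 1 library. The nearest genes left out peaked at 0.871 RPKM (Slc35e4), 0.877 (Slc4a4) and 0.924 (Slc44a3), and the nearest kept peaked at 1.06 (Slc19a3), 1.10 (Slc2a4) and 1.16 RPKM (Slc41a3). Of the members, 191 were also listed in the undifferentiated mRNA-seq table and 198 in the PRO-seq table. 5 members carry an Slc symbol but do not encode a transporter: the scaffold proteins Slc9a3r1 and Slc9a3r2, Slc7a6os, Slc4a1ap and the pseudogene Slc2a4rg-ps.

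All libraries came from TX1072, a single female F1 hybrid line with 1 genome from C57BL/6 (B6) and the other from CAST/EiJ (Cast) mice, in which a doxycycline responsive promoter stands in front of Xist on the B6 X and rtTA sits in Rosa26. Cells were kept on gelatin in serum medium with LIF and 2i (the Gsk3 inhibitor CT-99021 and the MEK inhibitor PD0325901), and Xist was induced with 1 µg/ml doxycycline. The differentiating course had 2 libraries each at 0, 8, 16, 24 and 48 h of doxycycline, and the undifferentiated course had 2 each at 0, 2, 4, 8, 12 and 24 h. PRO-seq, a run-on assay of engaged RNA polymerase, covered undifferentiated cells with duplicates before and after 24 h of doxycycline and single libraries at 0.5, 1, 2, 4, 8 and 12 h. The labels do not describe the differentiation medium, and every later library of both courses had doxycycline, so time in differentiation and time on doxycycline cannot be told apart within a course. Whether duplicates are separate cultures is not stated in the labels, and p-values therefore reflect only how far these particular libraries differ, which may be technical variation.

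Solute carriers are membrane proteins that move small molecules and ions down or against their gradients, and they are sorted into numbered families by sequence. Family 2 proteins carry glucose, family 16 lactate and other carboxylates, families 1, 3, 6, 7 and 38 amino acids, families 30 and 39 zinc and related metals, family 25 metabolites across the inner mitochondrial membrane, and family 35 nucleotide sugars into the Golgi and the endoplasmic reticulum. Embryonic stem cells take up large amounts of glucose and glutamine, and the balance of uptake routes is known to shift when they leave the naive state.

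By its marker genes the differentiating course left the naive state. Its label, the same at 0 h as later, gives differentiated embryonic stem cells and names no naive state. Of 13 naive pluripotency genes, 12 fell and 1 rose at 48 h (median log2 change -2.25), and of 10 formative and primed genes tested, 7 rose and 2 fell (median 2.21). Markers of other lineages were also summed, and the trophectoderm list went from 39.6 to 41.6 RPKM at 0 h to between 148 and 161 RPKM at 48 h, with 3 of its 6 genes tested higher and 3 lower. The other lists were lower in sum at 48 h, the neuroectoderm list from 73.7 to 74.9 RPKM down to 11.2 to 11.3, the mesendoderm list from 20.8 to 20.9 down to 6.58 to 6.76 and the primitive endoderm list from 17.7 to 19.1 down to 5.11 to 5.50. The fibroblast list was at 51.0 to 51.8 RPKM at 0 h and 43.7 to 46.0 at 48 h, and the 1 gene in the table from the two-cell-like list went from 1.23 to 1.42 RPKM down to 0.205 to 0.346. The part of such cells in the values below was not tested. Relative depth read from the RPKM steps differed by up to 1.92 times between differentiating libraries and by up to 1.52 times between undifferentiated ones. Duplicates in the differentiating course were almost identical: 0 of 193 members tested differed by 1.5 times or more between the 2 libraries at any time, and 0.115 to 0.245% of all genes tested did. In the undifferentiated course 13 to 38 of 176 members (7.39 to 21.6%) did so at 0, 4, 8, 12 and 24 h, against 7.06 to 15.8% of all genes. At 2 h, where replicate 1 stood apart, 91 members (51.7%) and 57.4% of all genes did. Results that use the undifferentiated course are therefore also given without that library.

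At 48 h of differentiation most solute carrier genes had changed, and they split almost evenly in direction. By limma across all genes, 95 of 193 members tested were higher at 48 h than at 0 h, where 44.4% of all genes tested were higher, and 84 were lower, where 39.9% of all genes were. The members' median log2 change was 0.09, against 0.03 over all genes tested. Because the duplicates were so close, small changes passed the test, and a change of at least 2-fold was also asked for. With it 49 members were higher (25.4% of those tested, against 13.9% of all genes) and 20 were lower (10.4%, against 6.51%). Members that passed the level rule only through 48 h had to be higher there. Among the 151 members at 1 RPKM or more in every library, 64 were higher and 77 lower (median log2 change -0.13), and of the 9473 genes at that level 3790 were higher and 4117 lower (median -0.03). At least 2-fold changes in these were 26 higher (17.2%, against 8.67% of the 9473 genes) and 14 lower (9.27%, against 5.18%). That restriction also leaves out genes that fell to under 1 RPKM.

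The summed level of all 198 members moved little, from 2586 ± 10.1 RPKM (SD, n = 2, as throughout) at 0 h to 2810.3 ± 44.8 at 48 h, while its makeup changed. Amino acid and peptide transporters rose from 528 ± 2.06 to 728 ± 13.4 RPKM in sum, and inorganic ion transporters from 178 ± 2.29 to 323 ± 7.50. The amino acid and peptide sum was highest at 16 h, at 804 ± 3.30 RPKM. A large part of each gain came from a single gene, Slc38a2 in the first class and Slc20a1 in the second. Mitochondrial carriers went from 724 ± 6.97 to 595 ± 6.12 RPKM, and the nucleotide sugar family 35 from 219.9 ± 0.0132 to 131 ± 3.30. These sums were not tested. By number of genes, the classes with the highest median log2 change were organic ions, bile acids and amines (1.15, 9 of 13 tested higher and 3 lower), inorganic ions (0.77, 18 of 24 higher and 5 lower) and sugars and polyols (0.57, 11 of 16 higher and 5 lower). Lowest were carboxylates and fatty acids (-0.52, 3 of 12 higher and 9 lower) and family 35 (-0.38, 6 of 20 higher and 13 lower). These medians include members that passed the level rule only at 48 h. Among members at 1 RPKM or more in every library the medians were 1.13 for organic ions, bile acids and amines (6 of 8 higher), 0.61 for inorganic ions (13 of 18 higher), 0.36 for sugars and polyols (7 of 12 higher), -0.41 for carboxylates and fatty acids (7 of 9 lower) and -0.51 for family 35 (13 of 17 lower). Beside these counts, 44.4% of all genes tested were higher and 39.9% lower at 48 h. Of the 9473 genes at 1 RPKM or more in every library, 40% were higher and 43.5% lower. No test was made of one class against another.

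**Figure D1:**
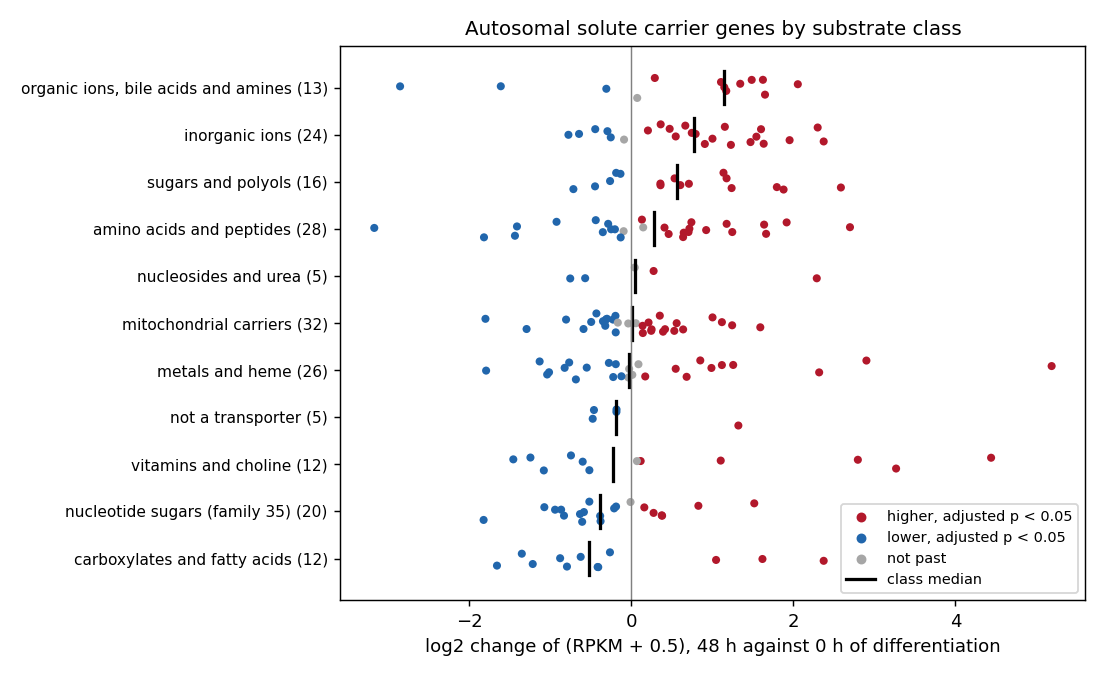
Log2 change of (RPKM + 0.5) between 0 and 48 h of differentiation for the 193 members tested (x axis), with 1 point per gene and 1 line per substrate class (number tested in brackets). Red points were higher and blue points lower by limma, grey points did not pass the threshold, and the black bars mark class medians, which run from 1.15 for organic ions, bile acids and amines to -0.52 for carboxylates and fatty acids.

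Among 26 metal and heme transporters, 10 were higher and 12 lower at 48 h (44.4% and 39.9% of all genes tested were). The class held the largest rise of any member. Slc40a1 (chromosome 1, 45908068 to 45926523, minus strand) encodes ferroportin, the only known iron exporter of mammalian cells. Its level was 0.119 and 0.120 RPKM in the 2 libraries at 0 h, 0.926 and 0.939 at 8 h, 1.97 and 1.79 at 16 h, 7.92 and 7.67 at 24 h and 21.7 and 22.4 at 48 h (log2 change 5.19 ± 0.05, adjusted p = 8.3e-15). It was nearly silent at the start and higher at each time than at the one before, and successive groups did not overlap. In undifferentiated cells it stayed between 0.0502 and 0.160 RPKM in all 12 libraries. Slc39a14, which imports zinc, iron and manganese, had a different course. It stood at 1.12 and 0.979 RPKM at 0 h and 13.8 and 13.0 at 8 h, and at 11.5 and 10.7 at 48 h (log2 change 2.90 ± 0.05, adjusted p = 4.2e-13). The whole rise was in place at 8 h.

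Slc30a1 (chromosome 1, 191906767 to 191913247, plus strand), the zinc exporter of the plasma membrane, went the other way. Its level was 17.2 and 17.2 RPKM at 0 h, 8.37 and 8.91 at 8 h, 4.95 and 4.98 at 16 h, 3.73 and 3.85 at 24 h and 4.58 and 4.67 at 48 h (log2 change -1.79 ± 0.04, adjusted p = 3.0e-12). The fall took place over the first 24 h, and no later library came back to the level of 0 h. Slc30a1 is a textbook target of the zinc sensor Mtf1, which binds metal response elements, so the 250 bases before its RefSeq start are shown (GRCm38.p6, chr1:191906531-191906780, plus strand). Capitals mark a match to the core TGCACNC or TGCGCNC, searched on both strands, and no other motif was searched in this window.
Slc30a1: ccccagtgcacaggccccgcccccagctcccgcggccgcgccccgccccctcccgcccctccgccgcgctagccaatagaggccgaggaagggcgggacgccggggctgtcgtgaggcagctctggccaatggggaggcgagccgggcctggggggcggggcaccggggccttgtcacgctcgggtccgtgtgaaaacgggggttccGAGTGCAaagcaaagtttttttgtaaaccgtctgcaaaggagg
The window holds 1 match, and 21.4% of the 32851 promoter windows of the same length in the table hold at least 1. The metallothionein Mt1, another textbook Mtf1 target, rose from 503 ± 11.2 to 659 ± 24.5 RPKM (log2 change 0.39 ± 0.05, adjusted p = 2.6e-05). The magnesium transporter Slc41a1 fell from 12.8 ± 0.296 to 6.01 ± 0.158 RPKM (log2 change -1.03 ± 0.05, adjusted p = 2.3e-09). Slc11a2, the proton-coupled iron importer, fell from 11.5 ± 0.0747 to 7.72 ± 0.265 RPKM (log2 change -0.55 ± 0.05, adjusted p = 3.3e-07). Slc39a10, a zinc importer, was at 30.2 ± 0.537 and 29.5 ± 2.08 RPKM and did not pass the test (adjusted p = 0.5). Known partners in iron handling, outside the Slc family names, moved in both directions. The iron storage subunit Ftl1 rose from 317 ± 12.0 to 689 ± 50.0 RPKM (log2 change 1.12 ± 0.05, adjusted p = 6.6e-10). Tfrc, the receptor that takes up transferrin iron, fell from 208 ± 1.43 to 149 ± 14.1 RPKM (log2 change -0.49 ± 0.05, adjusted p = 2.9e-06).

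All 28 amino acid and peptide transporters were tested. Of these 15 rose and 11 fell (44.4% and 39.9% of all genes tested did), and 2 did not pass. The largest rise was that of Slc7a7, a light chain that pairs with the heavy chain Slc3a2 to exchange cationic for neutral amino acids. It read 7.76 and 7.91 RPKM at 0 h, 54.3 and 53.2 at 8 h, 72.0 and 71.0 at 16 h, 71.5 and 72.2 at 24 h and 55.7 and 51.7 at 48 h (log2 change 2.70 ± 0.04, adjusted p = 7.2e-14). Most of the rise was present at 8 h, and the level was lower at 48 h than at 24 h in both libraries. Slc38a2, a sodium-coupled importer of small neutral amino acids such as alanine and glutamine, had 61.5 and 59.1 RPKM at 0 h, 107 and 106 at 8 h, 144.2 and 141 at 16 h, 203 and 201 at 24 h and 189 and 188 at 48 h (log2 change 1.64 ± 0.03, adjusted p = 6.8e-13). At 48 h it was the most abundant transporter of its class.

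Slc7a1, the main cationic amino acid importer of many cells, had its main fall after 16 h. It read 24.8 and 23.5 RPKM at 0 h, 20.2 and 18.3 at 8 h, 23.2 and 23.5 at 16 h, 11.7 and 11.8 at 24 h and 6.74 and 6.30 at 48 h (log2 change -1.81 ± 0.05, adjusted p = 1.3e-11). Of the classic partners in glutamine and leucine uptake, the heavy chain Slc3a2 rose from 60.1 ± 1.72 to 99.3 ± 2.14 RPKM (log2 change 0.72 ± 0.04, adjusted p = 2.1e-09). Slc1a5, the glutamine exchanger, rose from 46.1 ± 0.862 to 61.5 ± 2.42 RPKM (log2 change 0.41 ± 0.04, adjusted p = 2.9e-06). Its course was not steady, as it was called lower than at 0 h at 8 h (log2 change -0.31) and 24 h (-0.30). Slc7a5, the leucine-carrying light chain, read 63.5 ± 1.66 at 0 h, 119.7 ± 0.805 at 16 h and 69.8 ± 1.65 at 48 h. Its 48 h change of 0.13 ± 0.04 (adjusted p = 0.0065) was lost without replicate 2 of 0 h (adjusted p = 0.058) and with equal library medians (0.54). Each of the 3 had a higher mean at 16 h than at 0 h or 24 h.

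The genes that respond to amino acid shortage, several of which are known to act with these transporters, did not move as one. Of 19 tested, 9 rose and 7 fell at 48 h (median log2 change 0.08), and 3 rose and 12 fell at 24 h (-0.31). Over all genes tested, 44.4% rose and 39.9% fell at 48 h, and 35.8% rose and 38.8% fell at 24 h. Asns, which makes asparagine, fell from 338 ± 8.57 to 125 ± 0.417 RPKM (log2 change -1.43 ± 0.03, adjusted p = 2.3e-12). Ddit4, an inhibitor of mTORC1 signalling, rose from 36.2 ± 3.03 to 225 ± 0.355 RPKM (log2 change 2.62 ± 0.05, adjusted p = 8.9e-13). Of 21 genes that partner or regulate transporters, such as the escorts and metal-handling genes named beside their carriers, 13 rose and 6 fell at 48 h (median log2 change 0.26).

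Among the sugar and polyol transporters 11 rose and 5 fell (44.4% and 39.9% of all genes tested did). The glucose transporters that carry most of the class's RNA, however, changed by less than 2-fold by 48 h. Slc2a1 (chromosome 4, 119108711 to 119137983, plus strand), the basal glucose transporter of most cells, had 102 and 110.1 RPKM at 0 h, 171 and 168 at 24 h and 141 and 133 at 48 h (log2 change 0.36 ± 0.05, adjusted p = 3.1e-05). Slc2a3, a high-affinity glucose transporter, had 165 and 172 RPKM at 0 h, 57.5 and 57.9 at 24 h and 125 and 122 at 48 h (log2 change -0.44 ± 0.04, adjusted p = 1.5e-07). Slc2a3 was the higher at 0 h. At 24 h Slc2a1 stood above and Slc2a3 below its starting level, and their order was reversed. By 48 h they stood close, with Slc2a1 still the higher. Txnip, which limits glucose uptake, rose from 27.8 ± 0.212 to 193 ± 18.2 RPKM (log2 change 2.77 ± 0.05, adjusted p = 4.2e-13). Slc2a3, Slc25a4 and Slc2a1 were the 3 most abundant members at 0 h. Slc5a11, a sodium-coupled carrier of myo-inositol, rose from 1.69 ± 0.0843 to 12.7 ± 0.0342 RPKM (log2 change 2.59 ± 0.06, adjusted p = 2.5e-12). The other myo-inositol carrier, Slc5a3, read 2.57 ± 0.199 and 6.44 ± 0.214 RPKM (log2 change 1.18 ± 0.06, adjusted p = 4.8e-09), but its transcript lies within Mrps6 over 29152 bases of the same strand, and the authors' counting could divide such reads. Slc37a1, an exchanger of glucose phosphate for phosphate, went from 7.85 ± 0.194 to 7.13 ± 0.394 RPKM (log2 change -0.13 ± 0.04, adjusted p = 0.017), a call lost without replicate 1 of 0 h (adjusted p = 0.1) or replicate 2 of 48 h (0.14). The sodium-glucose carrier Slc5a1 rose to 9.62 ± 0.0302 RPKM at 8 h and fell from 5.98 ± 0.121 at 0 h to 3.46 ± 0.0781 at 48 h (log2 change -0.71 ± 0.05, adjusted p = 2.5e-08).

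Of 12 carboxylate and fatty acid transporters, 9 were lower at 8 h and 0 higher, and at 48 h 9 were lower and 3 higher. Over all genes tested, 32.4% were lower and 23.4% higher at 8 h, and 39.9% were lower and 44.4% higher at 48 h. Slc16a3 (chromosome 11, 120948480 to 120960868, plus strand), which exports lactate from glycolytic cells, was the main exception. It had 6.39 and 8.32 RPKM at 0 h, 5.83 and 6.02 at 8 h, 35.6 and 35.1 at 16 h, 42.7 and 41.7 at 24 h and 40.4 and 39.5 at 48 h (log2 change 2.38 ± 0.09, adjusted p = 2.0e-09). The step fell between 8 and 16 h and the level then held. Slc16a1, the more widely expressed lactate and pyruvate carrier, fell from 70.8 ± 0.800 to 59.0 ± 0.998 RPKM (log2 change -0.26 ± 0.03, adjusted p = 2.0e-05). Both need an escort protein to reach the membrane, for which Bsg is the usual partner and Emb another. Emb rose from 49.3 ± 0.730 to 214 ± 7.01 RPKM (log2 change 2.11 ± 0.04, adjusted p = 4.3e-13), and Bsg rose from 165 ± 3.71 to 209.9 ± 1.55 RPKM (log2 change 0.34 ± 0.03, adjusted p = 1.1e-06). Slc16a6, of family 16, fell from 5.42 ± 0.0288 to 2.73 ± 0.0221 RPKM (log2 change -0.87 ± 0.04, adjusted p = 2.5e-09). Slc16a9, a carnitine carrier, fell from 3.67 ± 0.0562 to 0.826 ± 0.0155 RPKM (log2 change -1.65 ± 0.09, adjusted p = 3.8e-09). The fatty acid transport proteins, which bring fatty acids in and activate them, diverged. Slc27a1 rose from 4.23 ± 0.148 to 9.28 ± 0.220 RPKM (log2 change 1.05 ± 0.07, adjusted p = 1.5e-08). Slc27a4 fell from 12.0 ± 0.149 to 4.88 ± 0.263 RPKM (log2 change -1.21 ± 0.05, adjusted p = 2.2e-10).

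**Figure D2:**
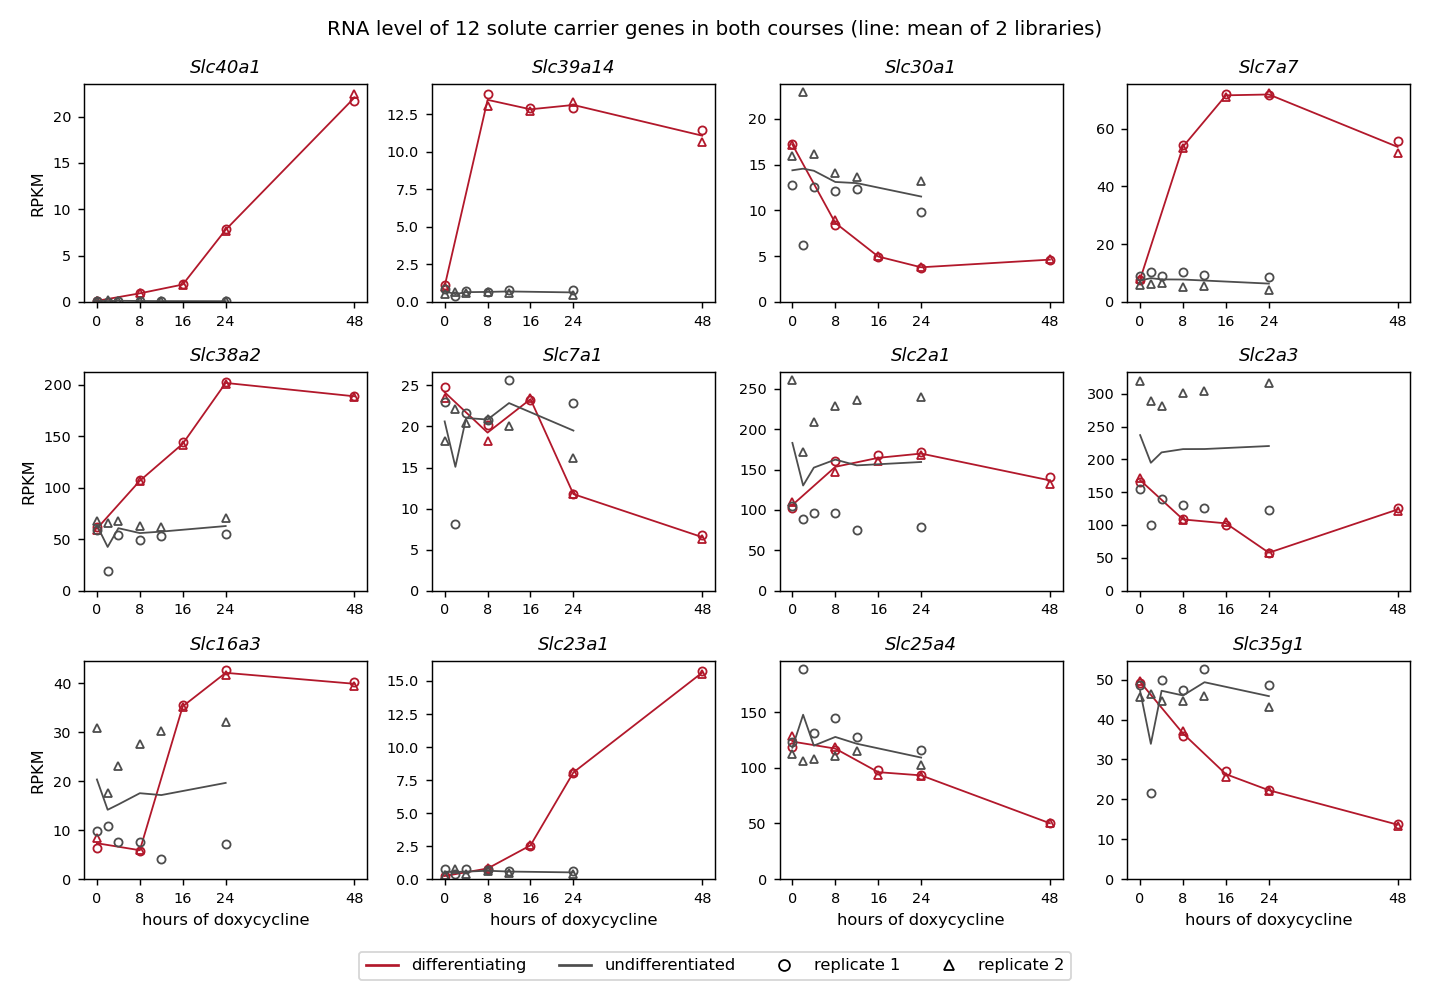
RPKM (y axis, linear, own scale per gene, starting at 0) against hours of doxycycline (x axis) for 12 members, with each library as a point, circles for replicate 1 and triangles for replicate 2, and lines through the means of 2 libraries. Differentiating cells are red and undifferentiated cells grey; Slc40a1, Slc39a14, Slc7a7 and Slc23a1 leave the flat grey level in red only, while the grey replicates of Slc2a1, Slc2a3 and Slc16a3 lie far apart at every time.

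Vitamin and choline transporters held steep rises as well. Slc23a1, a sodium-coupled importer of ascorbate, read 0.268 and 0.219 RPKM at 0 h, 0.780 and 0.843 at 8 h, 2.55 and 2.57 at 16 h, 8.02 and 8.14 at 24 h and 15.7 and 15.5 at 48 h (log2 change 4.44 ± 0.05, adjusted p = 2.0e-14). As with Slc40a1, each time point lay above the one before. Slc44a2, of the choline transporter-like family, rose from 3.41 ± 0.191 to 26.7 ± 0.517 RPKM (log2 change 2.80 ± 0.04, adjusted p = 1.2e-13). Slc46a3, a lysosomal carrier, rose from 0.318 ± 0.0409 to 7.37 ± 0.0506 RPKM (log2 change 3.27 ± 0.07, adjusted p = 7.2e-13). Against these, the importers of biotin and folate in the class fell. Slc5a6, which brings in biotin and pantothenate, fell from 13.3 ± 0.216 to 4.55 ± 0.0207 RPKM (log2 change -1.45 ± 0.04, adjusted p = 1.8e-11). Slc46a1, the proton-coupled folate transporter, fell from 5.04 ± 0.109 to 1.84 ± 0.0700 RPKM (log2 change -1.24 ± 0.07, adjusted p = 6.1e-09). Slc19a1, the reduced folate carrier, fell from 4.96 ± 0.00863 to 3.33 ± 0.110 RPKM (log2 change -0.51 ± 0.06, adjusted p = 2.7e-06).

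Mitochondrial carriers of family 25 split evenly, with 15 of 32 higher and 14 lower (44.4% and 39.9% of all genes tested were). The 4 with the most RNA at 0 h (Slc25a4, Slc25a1, Slc25a3 and Slc25a39) fell, however. Slc25a4, which exchanges ADP for ATP across the inner membrane, had 119 and 128 RPKM at 0 h, 93.6 and 92.7 at 24 h and 50.1 and 50.3 at 48 h (log2 change -1.29 ± 0.04, adjusted p = 3.1e-11). Slc25a20, which brings acylcarnitines in for fatty acid oxidation, had 27.5 and 28.1 RPKM at 0 h, 14.3 and 14.1 at 24 h and 7.52 and 7.80 at 48 h (log2 change -1.80 ± 0.04, adjusted p = 1.4e-12). The phosphate carrier Slc25a3 fell from 94.7 ± 2.43 to 74.3 ± 0.779 RPKM (log2 change -0.35 ± 0.04, adjusted p = 1.7e-06). The citrate carrier Slc25a1, which supplies acetyl groups for lipid synthesis, went down to 50.0 ± 0.699 RPKM at 24 h from 102 ± 0.925 at 0 h and stood at 81.0 ± 2.68 at 48 h (log2 change -0.33 ± 0.04, adjusted p = 3.4e-06). These 4 carriers were all lower at 48 h. Slc25a40, a mitochondrial glutathione carrier, rose from 3.53 ± 0.132 to 11.7 ± 0.162 RPKM (log2 change 1.59 ± 0.05, adjusted p = 2.9e-11). The uncoupling-protein relative Slc25a27 rose from 1.27 ± 0.0448 to 3.70 ± 0.0506 RPKM (log2 change 1.25 ± 0.12, adjusted p = 3.4e-06). Mpc1, a subunit of the pyruvate carrier outside the Slc family names, fell from 13.9 ± 0.143 to 6.66 ± 0.627 RPKM (log2 change -1.01 ± 0.06, adjusted p = 7.5e-09).

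Most inorganic ion transporters rose, with 10 at least 2-fold higher and 0 at least 2-fold lower at 48 h (13.9% and 6.51% of all genes tested were). Among the 18 at 1 RPKM or more in every library these counts were 5 and 0 (8.67% and 5.18% of all genes at that level). Slc20a1, the main phosphate importer, had 51.2 and 50.9 RPKM at 0 h, 89.1 and 87.3 at 8 h, 133 and 134 at 24 h and 144.7 and 140.4 at 48 h (log2 change 1.47 ± 0.03, adjusted p = 1.4e-12). The potassium-chloride exporter Slc12a4 and the importer Slc12a2, which set cell volume in opposite directions, moved oppositely. Slc12a4 rose from 4.45 ± 0.202 to 14.9 ± 0.825 RPKM (log2 change 1.64 ± 0.05, adjusted p = 2.6e-11). Slc12a2 fell from 22.3 ± 0.537 to 12.8 ± 0.377 RPKM (log2 change -0.77 ± 0.04, adjusted p = 2.1e-09). Stk39, a kinase that acts on both, rose from 1.36 ± 0.182 to 8.89 ± 0.0713 RPKM (log2 change 2.34 ± 0.06, adjusted p = 7.6e-12). None of these 3 genes stayed at its starting level. Slc5a5, the sodium-iodide carrier, rose from 0.371 ± 0.0377 to 3.79 ± 0.175 RPKM (log2 change 2.30 ± 0.07, adjusted p = 2.4e-11). Slc4a5, a sodium-bicarbonate carrier, fell from 14.0 ± 0.0507 to 8.80 ± 0.148 RPKM (log2 change -0.64 ± 0.04, adjusted p = 9.6e-09).

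Most of family 35 fell, with 13 of 20 lower and 6 higher (39.9% and 44.4% of all genes tested were). Slc35g1 had 49.2 and 49.7 RPKM at 0 h, 35.8 and 37.2 at 8 h, 27.1 and 25.5 at 16 h, 22.4 and 22.2 at 24 h and 13.9 and 13.4 at 48 h (log2 change -1.82 ± 0.04, adjusted p = 1.4e-12). It was lower at each time point than at the one before. Slc35b2, which supplies the sulfate donor PAPS to the Golgi, fell from 14.0 ± 0.609 to 6.40 ± 0.173 RPKM (log2 change -1.07 ± 0.04, adjusted p = 2.9e-10). Slc35f2 fell from 27.4 ± 0.118 to 15.3 ± 1.37 RPKM (log2 change -0.83 ± 0.05, adjusted p = 1.4e-08). Among members of the family that rose were Slc35f6 at 0.38 ± 0.06 and Slc35f5 at 0.28 ± 0.04 (log2 change, adjusted p = 4.0e-05 and 7.4e-05). Earlier both were called lower than at 0 h, Slc35f6 at 8 h (-0.36) and Slc35f5 at 8 and 24 h (-0.20 and -0.57). Slc35f1 rose from a low level, 0.194 ± 0.00479 RPKM, to 1.49 ± 0.176 (log2 change 1.52 ± 0.07, adjusted p = 1.0e-09).

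Among organic ion, bile acid and amine carriers, Slc22a7, an organic anion transporter, rose from 1.17 ± 0.0689 to 6.45 ± 0.127 RPKM (log2 change 2.06 ± 0.06, adjusted p = 2.0e-11). Slc17a5, which moves sialic acid out of lysosomes, rose from 1.48 ± 0.136 to 5.04 ± 0.0265 RPKM (log2 change 1.49 ± 0.07, adjusted p = 6.7e-10). Slc18b1, a vesicular polyamine carrier, was at 9.70 ± 0.00969 RPKM as late as 24 h and fell from 9.55 ± 0.521 at 0 h to 2.80 ± 0.157 at 48 h (log2 change -1.61 ± 0.05, adjusted p = 2.4e-11). The fall of Slc18b1 came late. Of the 5 nucleoside and urea carriers, 2 rose and 2 fell. Slc29a4, which also carries monoamines, rose from 1.32 ± 0.155 to 8.39 ± 0.483 RPKM (log2 change 2.29 ± 0.07, adjusted p = 2.0e-11). The concentrative nucleoside carrier Slc28a1 fell from 19.2 ± 0.325 to 11.2 ± 0.0723 RPKM (log2 change -0.75 ± 0.04, adjusted p = 3.7e-09). The equilibrative carrier Slc29a2 fell from 12.1 ± 0.223 to 8.00 ± 0.224 RPKM (log2 change -0.57 ± 0.06, adjusted p = 1.7e-06). Slc10a7, of the bile acid carrier family by sequence, fell from 10.2 ± 0.529 to 8.17 ± 0.0404 RPKM (log2 change -0.31 ± 0.05, adjusted p = 5.7e-05). Slc9a3r1, a scaffold for membrane transporters and itself no carrier, rose from 20.6 ± 0.0437 to 63.5 ± 1.91 RPKM by 8 h and was at 52.4 ± 0.963 at 48 h (log2 change 1.32 ± 0.04, adjusted p = 1.1e-11). The related scaffold Slc9a3r2 fell from 11.7 ± 0.126 to 8.38 ± 0.0347 RPKM (log2 change -0.46 ± 0.04, adjusted p = 1.9e-07). Across the list of transporters known for central roles in stem cell metabolism, 8 of 20 tested rose and 11 fell (median log2 change -0.29). Of all genes tested, 44.4% rose and 39.9% fell.

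Many of these changes were already called at 8 h. By limma 62 members were higher and 77 lower at 8 h (23.4% and 32.4% of all genes tested), 82 and 74 at 16 h (36.2% and 34.7%), and 87 and 80 at 24 h (35.8% and 38.8%). At least 2-fold changes were fewer at first, with 7 higher and 4 lower at 8 h (2.71% and 1.6% of all genes), 20 and 8 at 16 h (5.43% and 2.32%), and 26 and 17 at 24 h (7.28% and 4.09%). Of the 95 members higher at 48 h, 44 were first called in that direction at 8 h, a further 24 at 16 h, 5 more at 24 h and the last 22 at 48 h. Of the 84 lower, 48 were first called lower at 8 h, a further 17 at 16 h, 5 more at 24 h and the last 14 at 48 h. Over all genes tested, 34.4% of those higher and 42.6% of those lower at 48 h were called so at 8 h, against 46.3% and 57.1% of the members. The direction at 48 h was opposite to an earlier call for 51 members, which is 28.5% of those called at 48 h and compares with 26.9% over all genes. A further 13 (6.74%, against 12.6% of all genes tested) were called at an earlier time and not at 48 h, and 1 was never called.

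The undifferentiated course asks what doxycycline and time did without differentiation. By limma 0 of 176 members tested were higher and 0 lower at 24 h than at 0 h, with 1 in each direction at an unadjusted p under 0.05, and over all genes 0.00861% were higher and 0% lower. Leaving out any 1 library of the course, replicate 1 of 2 h included, also gave 0 higher and 0 lower. With replicate number as a block and without replicate 1 of 2 h, 2 members were higher and 1 lower, Slc44a2 among the higher (log2 change 0.39, adjusted p = 0.033). The spread in this course was wide, so small changes were not detectable, and for some members large ones were not either. The main test had no replicate block, so a lasting difference between replicate 1 and replicate 2 counted as spread. The 95% confidence interval of the log2 change ran from -2.75 to 2.39 for Slc16a3 and from -2.13 to 1.60 for Slc2a1. For others it was narrower, such as -0.39 to 0.24 for Slc1a5.

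For some members the spread had the same direction at every time. 9 members (5.11% of 176) were at least 1.5 times higher in replicate 2 than in replicate 1 at all 6 times, namely Slc2a1, Slc2a3, Slc16a3, Slc16a6, Slc5a3, Slc25a27, Slc6a7, Slc9a8 and Slc2a4rg-ps, and 2 (1.14%) were lower at all 6, Slc5a11 and Slc51a. Over all 11612 genes tested, 1.68% were higher and 0.896% lower at all 6. In the differentiating course there were 0 in either direction, among members and among all genes. The list was drawn up after the values were seen. For Slc16a3 the 2 libraries read 9.78 and 31.0 RPKM at 0 h, 10.8 and 17.6 at 2 h, 7.52 and 23.04 at 4 h, 7.56 and 27.6 at 8 h, 4.05 and 30.3 at 12 h and 7.25 and 32.1 at 24 h, a median ratio of 3.27. For Slc2a1 they read 105 and 261 RPKM at 0 h and 79.0 and 240.0 at 24 h, with a median ratio of 2.43, and for Slc2a3 they read 154 and 319.6 RPKM at 0 h and 124 and 317 at 24 h, with a median ratio of 2.36. The inositol carrier Slc5a11 went the other way, at 2.46 and 0.685 RPKM at 0 h and 2.87 and 0.828 at 24 h, and replicate 1 was a median 2.29 times higher. Replicate 1 lay nearer the 0 h level of the differentiating course for Slc2a1, Slc2a3 and Slc16a3. What differed between the libraries is not given in the labels, and the cause was not tested.

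Slc2a1 and Slc16a3 are textbook targets of the oxygen-sensing factor Hif1a, so the 250 bases before their RefSeq starts are shown (GRCm38.p6). The Slc2a1 window is chr4:119108495-119108744 and the Slc16a3 window chr11:120948817-120949066, both on the plus strand, with capitals on matches to ACGTG, the core of the hypoxia response element, searched on both strands. The deposited tables place the start of Slc16a3 upstream of this window.
Slc2a1: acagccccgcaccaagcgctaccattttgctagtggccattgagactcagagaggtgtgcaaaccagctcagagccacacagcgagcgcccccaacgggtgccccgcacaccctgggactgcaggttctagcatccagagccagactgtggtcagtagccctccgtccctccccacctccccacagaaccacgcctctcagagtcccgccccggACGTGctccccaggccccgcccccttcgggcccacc
Slc16a3: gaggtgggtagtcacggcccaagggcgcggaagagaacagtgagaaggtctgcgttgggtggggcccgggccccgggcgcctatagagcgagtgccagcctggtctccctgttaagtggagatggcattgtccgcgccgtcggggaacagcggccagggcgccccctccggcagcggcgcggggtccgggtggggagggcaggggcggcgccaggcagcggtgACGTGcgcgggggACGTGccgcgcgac
The Slc2a1 window holds 1 match and the Slc16a3 window 2, and 16.6% of the 32851 windows hold at least 1. The genes and motifs were chosen after the values were seen, and a match is no site of binding.

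PRO-seq of undifferentiated cells gave nascent levels for the same genes. Slc40a1 was at 0.205 and 0.147 RPKM at 0 h and at 0.104 and 0.176 at 24 h. Slc30a1 was at 12.0 and 12.3 RPKM at 0 h and at 10.9 and 11.4 at 24 h. Slc16a3 again varied, with 16.0 and 16.9 RPKM at 0 h, 5.88 in the single library of 0.5 h and 30.0 in that of 4 h. Levels in PRO-seq and mRNA-seq are not on one scale. No differentiating PRO-seq was analysed here.

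The difference in the 24 h change between courses was tested as an interaction of time and course over all 22 mRNA-seq libraries. By limma, 27 of 187 members tested changed more upward in differentiating cells, where 6.76% of all genes did, and 15 more downward, where 5.15% did. The level filter took the mean over both courses, and 176 members passed it in the undifferentiated course on its own. The others entered only through their level in the differentiating libraries, which favours upward calls. Among the upward calls these were Slc40a1, Slc2a5, Slc17a7, Slc5a5, Slc35d3, Slc35f1, Slc5a4b and Slc43a2. This filter held for all genes as well. The rule of at least 1 RPKM in any differentiating library held for members only, so the shares of members and of all genes are not like for like. With replicate number as a block the counts were 47 and 31, without replicate 1 of 2 h undifferentiated 40 and 23, and without replicate 1 of 0 h undifferentiated 9 were more downward. Shares over all genes are not given for these settings, so larger counts there are no result about members. The courses were also separate sets of libraries, so course and library set cannot be told apart. Among members past the threshold, the largest upward differences were those of Slc40a1 (3.81 ± 0.15 log2, adjusted p = 1.6e-09), Slc23a1 (3.58 ± 0.31, 4.2e-06) and Slc7a7 (3.37 ± 0.52, 0.00058). The largest downward ones among them were those of Slc16a9 (-2.12 ± 0.24 log2, adjusted p = 4.2e-05), the peptide carrier Slc15a1 (-1.56 ± 0.27, 0.0013) and the zinc carrier Slc39a11 (-1.40 ± 0.34, 0.014). The call for Slc39a11 was lost without replicate 2 of 0 h or replicate 1 of 24 h differentiating (adjusted p = 0.051 and 0.054), or without replicate 1 of 0 h or replicate 2 of 24 h undifferentiated (0.069 and 0.059). In the 2 undifferentiated libraries Slc7a7 read 9.11 and 5.74 RPKM at 0 h and 8.61 and 4.12 at 24 h, while Slc39a14 read 0.880 and 0.558 RPKM at 0 h and 0.822 and 0.448 at 24 h. For Slc38a2 the difference was 1.76 ± 0.53 (adjusted p = 0.047), and leaving out any 1 library of 0 or 24 h in either course gave an adjusted p between 0.066 and 0.14. For Slc30a1 it was -1.73 ± 0.54 (adjusted p = 0.055), with 4.3e-05 without replicate 1 of 2 h undifferentiated. For Slc16a3 it was 2.63 ± 1.26 with an adjusted p of 0.25, and 0.0016 with replicate number as a block.

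**Figure D3:**
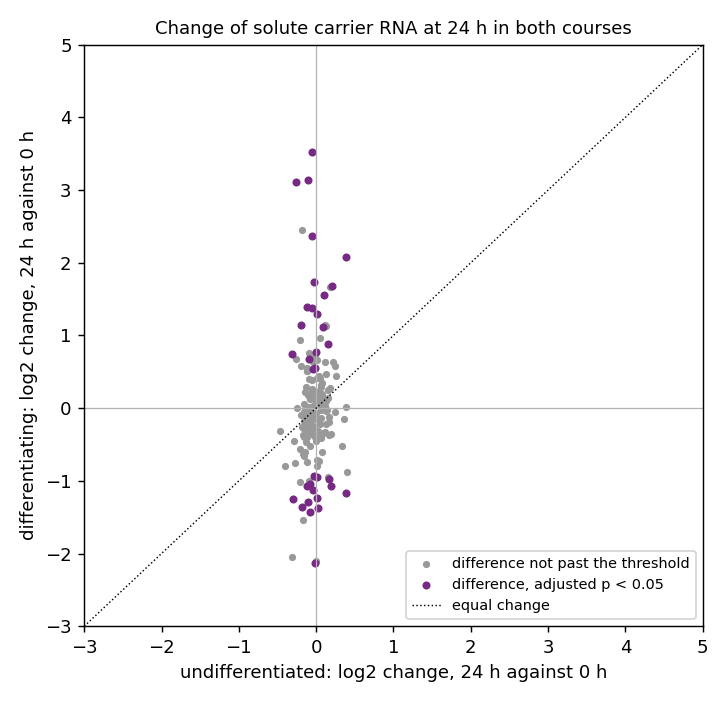
Log2 change of (RPKM + 0.5) from 0 to 24 h in undifferentiated (x axis) against differentiating cells (y axis), 1 point for each member tested in both courses. Members too low in undifferentiated cells for that course's own test are not shown. Of those that passed the test of the difference, these are Slc40a1, Slc2a5, Slc17a7, Slc5a5, Slc35d3, Slc35f1, Slc5a4b and Slc43a2. Purple points passed the limma test of the difference between courses; the points form an upright band, with undifferentiated changes between -0.47 and 0.40 on the log2 scale.

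The F1 line also tells which parental copy each RNA came from, given in the deposited tables as the B6 share of allele-assigned reads. Among 98 members with a mean of at least 5 RPKM and a share in both courses, 76 had a B6 share between 40 and 60% in both courses at 0 h, 6 were above 60% and 11 below 40% in both. The medians were 49.9% in the differentiating and 50.3% in the undifferentiated course, and a member's shares differed between courses by a median of 1.48 and at most 7.75 percentage points. Of the 17 members outside 40 to 60% in both, the PRO-seq share at 0 h had its 95% Wilson interval on the same side of 50% for 15 and on the other side for 0. None of these counts is given over all genes, so they do not compare members with other genes. The intervals cover counting error only, and the depth behind the RNA shares is unknown. The group below 40% held Slc25a1 at 23.1 ± 0.112% in RNA, with B6 reads at 43.8% of 404 allele-assigned PRO-seq reads at 0 h (95% Wilson interval 39.1 to 48.7%). Slc35g1 was at 32.3 ± 0.00841% at 0 h and 32.7 ± 0.267% at 48 h, although its level fell, and had B6 reads at 23.6% of 997 allele-assigned PRO-seq reads at 0 h (95% Wilson interval 21.04 to 26.3%). Slc37a1 was at 28.6 ± 2.43%, with B6 reads at 29.3% of 1307 allele-assigned PRO-seq reads at 0 h (95% Wilson interval 26.9 to 31.8%), and Slc35f2 at 30.9 ± 2.04%, with B6 reads at 30.9% of 692 allele-assigned PRO-seq reads at 0 h (95% Wilson interval 27.6 to 34.5%). At the other end Slc9a3r2 was at 68.2 ± 2.06%, and the 95% Wilson interval of its PRO-seq share, on 65 reads, ran from 47.9 to 71.0%. Slc35a4 was at 78.5 ± 1.08% and Slc4a5 at 73.6 ± 1.92%, with B6 reads at 67.2% of 2107 allele-assigned PRO-seq reads at 0 h (95% Wilson interval 65.1 to 69.1%).

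Over 48 h of differentiation the B6 share moved up for 28 of 168 members tested, against 10.5% of all genes, and down for 23, against 12.4% (limma on the log2 odds of the share). Without replicate 1 of 48 h 18 moved up and 13 down. In the undifferentiated course 0 of 158 moved up and 0 down at 24 h (0.0203% and 0.852% of all genes), with 5 and 3 at an unadjusted p under 0.05. Leaving out any 1 library of that course, replicate 1 of 2 h included, also gave 0 and 0. Slc1a3, a glutamate importer, started mostly on the Cast copy. Its B6 share was 12.7 and 12.9% at 0 h, 24.7 and 25.3% at 8 h, 31.5 and 30.4% at 16 h, 41.9 and 40.5% at 24 h and 46.4 and 47.8% at 48 h (2.51 ± 0.07 log2 odds, adjusted p = 9.5e-06). The share climbed at each step to near balance, while total RNA went from 4.51 ± 0.0703 to 9.01 ± 0.0263 RPKM. PRO-seq gave B6 reads at 11.1% of 774 allele-assigned PRO-seq reads at 0 h (95% Wilson interval 9.09 to 13.5%), and the gene overlaps Gm37310 over 2968 bases of the same strand.

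Some other skewed members also moved toward balance or past it. Not all of them were abundant, and Slc35f5 stood between 3.21 and 6.24 RPKM across the differentiating libraries. The depth behind the RNA shares is unknown, so the precision of each share below is unknown too. Fewer members were called lower in B6 share when a higher mean level was asked for. Slc35f2 had B6 shares of 29.5 and 32.4% at 0 h and 43.5 and 50.0% at 48 h (0.95 ± 0.14 log2 odds, adjusted p = 0.0038). Slc2a7, a hexose carrier, had B6 shares of 16.6 and 12.2% at 0 h and 50.5 and 43.6% at 48 h (2.33 ± 0.21 log2 odds, adjusted p = 0.00043). Slc35f5 had 22.2 and 14.0% at 0 h and 44.0 and 42.3% at 48 h (1.76 ± 0.26, adjusted p = 0.0038). From the B6 side, Slc30a2, a zinc carrier of vesicles, had 88.9 and 85.8% at 0 h and 38.6 and 39.6% at 48 h (-3.33 ± 0.14 log2 odds, adjusted p = 2.5e-05), with B6 reads at 87.5% of 503 allele-assigned PRO-seq reads at 0 h (95% Wilson interval 84.3 to 90.1%). Slc22a17, a receptor for lipocalin, had 81.0 and 85.2% at 0 h and 54.6 and 55.4% at 48 h (-1.96 ± 0.35, adjusted p = 0.0085). Slc44a2, whose level rose, had 84.4 and 75.5% at 0 h and 55.2 and 57.4% at 48 h (-1.62 ± 0.24, adjusted p = 0.0039), and its call was lost when the 0 and 48 h libraries were fitted alone (0.054).

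A few members moved away from balance. Slc4a5, already skewed to B6 at 0 h, moved further to B6 by 48 h (0.38 ± 0.10 log2 odds, adjusted p = 0.038). Slc6a15, an importer of branched-chain amino acids and proline, went from 40.7 and 45.0% at 0 h to 65.5 and 65.5% at 48 h (1.31 ± 0.09 log2 odds, adjusted p = 0.00016). Slc15a1, whose level fell, went from 46.6 and 47.2% to 19.8 and 25.9% (-1.55 ± 0.23, adjusted p = 0.0038). Slc25a31 (1.36 ± 0.30), Slc35f1 (-1.97 ± 0.39) and Slc25a42 (-1.62 ± 0.39) lost their calls without replicate 1 of 48 h (adjusted p = 0.084, 0.073 and 0.05). Slc25a31 also lost it without replicate 1 of 0 h (0.095), and Slc25a42 without replicate 2 of 0 h (0.081) or replicate 2 of 48 h (0.13).

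**Figure D4:**
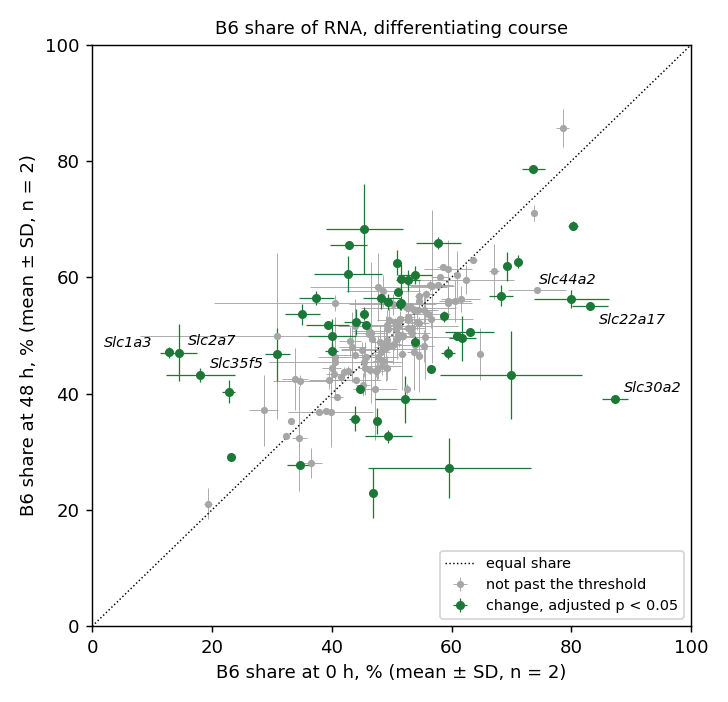
B6 share of allele-assigned RNA reads in percent at 0 h (x axis) and 48 h (y axis) of differentiation for the 168 members tested, as means of 2 libraries with SD bars. Green points passed limma on the log2 odds; Slc1a3, Slc2a7 and Slc35f5 lie above the dotted line of equal share and Slc30a2, Slc22a17 and Slc44a2 below it.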

How the data were processed

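Polyadenylated RNA was measured in 22 mRNA-seq libraries made with a stranded kit, per the labels' protocols, and nascent RNA in 10 PRO-seq libraries. The authors deposited RPKM and the B6 fraction for mRNA-seq without read counts, and RPKM, allele counts and the B6 fraction for PRO-seq. Per the submitters' processing notes the tools were HTSeq 0.6.1, TopHat2 2.1.0, cutadapt 1.8.2, SAMtools and Bowtie 1.0.0 on mm10. Their roles, the division of reads between alleles and the use of strand in counting are not given in the sources used here. The PRO-seq depth was 3041199 to 6443286 reads assigned to an allele, from which 95% Wilson intervals were made. For mRNA-seq only relative depth could be read from the RPKM steps.

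RNA levels were tested as log2(RPKM + 0.5) with limma 3.58.1 (R 4.3.3, trend, robust) in genes with a mean of at least 0.5 RPKM, so folds of genes near 0 are understated and depend on that pseudocount. Shares were tested as log2 odds with a pseudocount of 0.01, in genes with a mean of at least 1 RPKM and a share in every library. Every fit held all libraries of its course, p-values were two-sided with Benjamini-Hochberg adjustment across every gene in the fit, and the threshold was 0.05. The fits were tested on simulated data. Tables were handled in Python 3.11.15 with pandas 2.3.3.

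Members and gene lists were chosen with earlier results of these data known. Named were, per substrate class, the 1 or 2 largest changes in each direction among members with a mean of at least 2 RPKM, a list of central transporters, the 3 most abundant members, and the largest differences between courses and in B6 share; Slc39a14, Slc38a2, Slc30a1 and Slc16a3 in the comparison of courses, Slc15a1 in B6 share, Slc25a39, and the members that differed between replicates were added after their values were seen. Substrate classes were assigned by family from general knowledge. Of the 67 members named by rule, 9 overlap another gene on the same strand and 16 on the opposite strand, where reads could be shared. Promoter sequences are from RefSeq (GRCm38.p6); Slc2a3 is not in the table. The result for 1 member named by the rule is not reported here.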

Additional observations from a re-analysis of the deposited data

Results flagged for a closer look

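The change from 0 to 24 h differed between the courses, by limma's test of the interaction, for 27 members that moved more upward and 15 that moved more downward in differentiating cells (6.76% and 5.15% of all genes tested did). With replicate number as a block the counts were 47 and 31, for which no shares over all genes are given. Several upward calls, Slc40a1 among them, passed the level filter only through the differentiating libraries. The rule for members, which the other genes did not have to meet, also asked for a level in differentiating libraries. The difference was 3.81 (log2) for Slc40a1, 3.58 for Slc23a1 and 3.37 for Slc7a7. It was -2.12 for Slc16a9, -1.56 for Slc15a1 and -1.40 for Slc39a11, whose call was lost on leaving out any 1 of 4 libraries.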

How the results depend on the processing

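Counts of members called at 8, 16, 24 and 48 h of differentiation stayed within 1.5 times under other pseudocounts, other filters on the mean level, equal library medians and a replicate block, and no named result changed direction under any alternative while called. At 48 h, 49 were higher and 20 lower when a change of at least 2-fold was also asked for, and under the stricter member rule, 5 RPKM in any library, 57 were higher. Leaving out 1 library gave 92 to 96 higher and 81 to 85 lower at 48 h. The interaction at 24 h depended on the settings: 15 were more upward with a mean of at least 2 RPKM, 47 more upward and 31 more downward with the replicate block, and 66 and 55 with the block and without replicate 1 of 2 h undifferentiated. Leaving out 1 library gave 20 to 40 more upward and 9 to 23 more downward. Shares over all genes are not given for these settings, so the counts do not compare members with other genes. All 27 and 15 calls were among those under the block. For the change within undifferentiated cells at 24 h, the block without replicate 1 of 2 h gave 2 higher and 1 lower. Replicate numbers were given in accession order, and the labels state no pairing. In the undifferentiated course the library titles are numbered in order of time through replicate 1 and then through replicate 2, so these may be 2 series. The main fits had no replicate block. Deviations of libraries with the same number correlated between 0.327 and 0.902 in the undifferentiated course (15 of 15 pairs above 0.1) and between -0.119 and 0.246 in the differentiating one (2 of 10). B6 share changes at 48 h fell to 12 lower with a mean of at least 5 RPKM, and to 12 higher and 13 lower when the 0 and 48 h libraries were fitted alone. Leaving out 1 library gave 18 to 26 higher and 13 to 27 lower. The cause of these shifts was not tested. The alternatives without replicate 1 of 2 h and the 2-fold rule were added after the data were seen. With no read counts for mRNA-seq, the precision of a single RPKM or share is unknown.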
